A study of Drosophila melanogaster with 4 samples.

Results

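The vacuolar proton ATPase is a membrane machine that uses ATP to pump protons. It was examined here through its 33 genes with a symbol beginning Vha, among 16198 gene-level rows of the authors' table. The members were found by matching the table's transcript accessions to Release 6 gene symbols. They comprised 13 genes taken from background knowledge as the widely expressed gene of each subunit position, 18 paralogues of these, and 2 accessory genes. The authors tested 22 of the 33 between groups: all 13 widely expressed genes, 8 paralogues and 1 accessory gene.

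Polyadenylated RNA was sequenced from whole 3rd instar larvae of Drosophila melanogaster at 100 h after egg laying. One group was homozygous for the allele kr-h1[7] and is labelled kr-h1 mutant, and the other is labelled wild type, each with 2 libraries. Kr-h1 encodes a transcription factor with zinc fingers that responds to juvenile hormone. The labels state 25°C for the flies of both groups, with one diet of cornmeal, sugar and yeast for the adults. The mutant group carries a single allele, and the labels give neither the strain background of the wildtype group nor the number or sex of the larvae. Nor do they tell if the 2 libraries of each group stem from separate collections of larvae, so the spread behind the p-values may be technical.

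The level of each gene is 1 FPKM value per group (fragments scaled to transcript length and library size), made by the authors over the 2 libraries, so no value below carries a replicate error and the depth of the libraries is unknown. A gene is said to have risen or fallen where the Cuffdiff q-value of the authors' deposited table is at most 0.05. Kr-h1 itself stood at 9.79 FPKM in the libraries labelled kr-h1 mutant and at 2.98 FPKM in wildtype larvae, and the authors' deposited table gives a q-value of 0.000889. The mutated gene was thus higher under the mutant label, and every direction below rests on that label. Markers of muscle, fat body, salivary gland and midgut were all present, as the label of whole larvae requires.

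The pump has a cytosolic sector, V1, which hydrolyses ATP, and a membrane sector, V0, through which protons pass. In V1 the subunits A and B form the catalytic ring, D and F the central rotor, and C, E, G and H the outer stalks. In V0 the c ring turns against subunit a. The pump acidifies lysosomes and endosomes in all cells, and in insects it also energises the apical membrane of the Malpighian tubules and acid secretion in the midgut.

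The widely expressed genes were abundant at every position. Their levels lay between 84.1 and 559 FPKM in mutant larvae and between 98.1 and 587 FPKM in wildtype larvae. In both groups each of the 13 exceeded every paralogue at its own position, as the label of widely expressed gene implies. Vha13 (subunit G) and Vha16-1 (subunit c) were the highest, and Vha44 (subunit C) was the lowest. Together the 33 genes made up 0.573% of the FPKM total in mutant larvae and 0.602% in wildtype larvae.

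**Figure D1:**
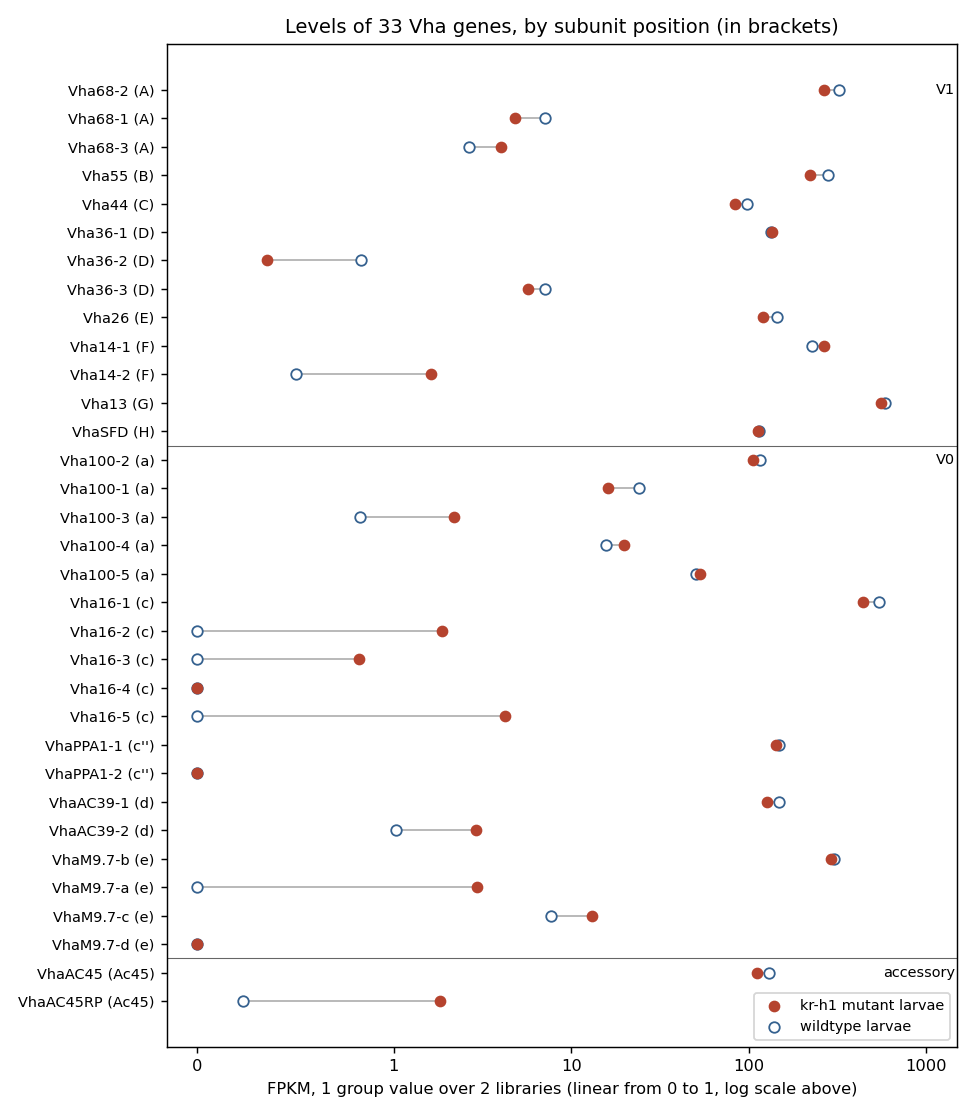
Level of each of the 33 Vha genes in FPKM (horizontal axis, linear from 0 to 1 and logarithmic above), with filled red points for kr-h1 mutant larvae and open blue points for wildtype larvae, 1 value per group. The 13 widely expressed genes lie from 84.1 to 587 FPKM in both groups, whereas 13 other genes lie below 5 FPKM on average, 9 of them with the higher value in mutant larvae.

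Between the groups, 7 Vha genes fell in mutant larvae and 0 rose among the 22 tested. The 5 widely expressed genes that fell were Vha68-2, Vha55 and Vha26 of V1 and Vha16-1 and VhaAC39-1 of V0. The paralogue Vha100-1 and the accessory gene VhaAC45 fell as well. The falls of the widely expressed genes were small, between 1.17-fold and 1.27-fold. Over all 7058 tested rows, 13.0% were called in either direction, 8.73% lower and 4.32% higher. At an unadjusted Cuffdiff p under 0.05, 9 Vha genes were lower and 2 were higher. By that threshold 1119 of the 7058 tested rows were lower and 700 higher. Among the 528 tested rows in the FPKM range of the widely expressed Vha genes, 228 were lower and 83 higher.

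Calls were more frequent among abundant genes, which bears on how this count reads. Among the 528 tested rows whose mean FPKM lay within the range of the widely expressed Vha genes (91.1 to 573 FPKM), 35.4% were called lower and 10.4% higher. Among the 13 widely expressed Vha genes, 5 were called lower (38.5%). The share of falls among them was therefore close to that of other genes of like abundance. Their median log2 ratio, computed with a pseudocount of 1, was -0.13, against -0.12 for those 528 rows and -0.035 for all tested rows. In whole larvae, fewer cells of a type and less RNA per cell cannot be told apart.

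**Figure D2:**
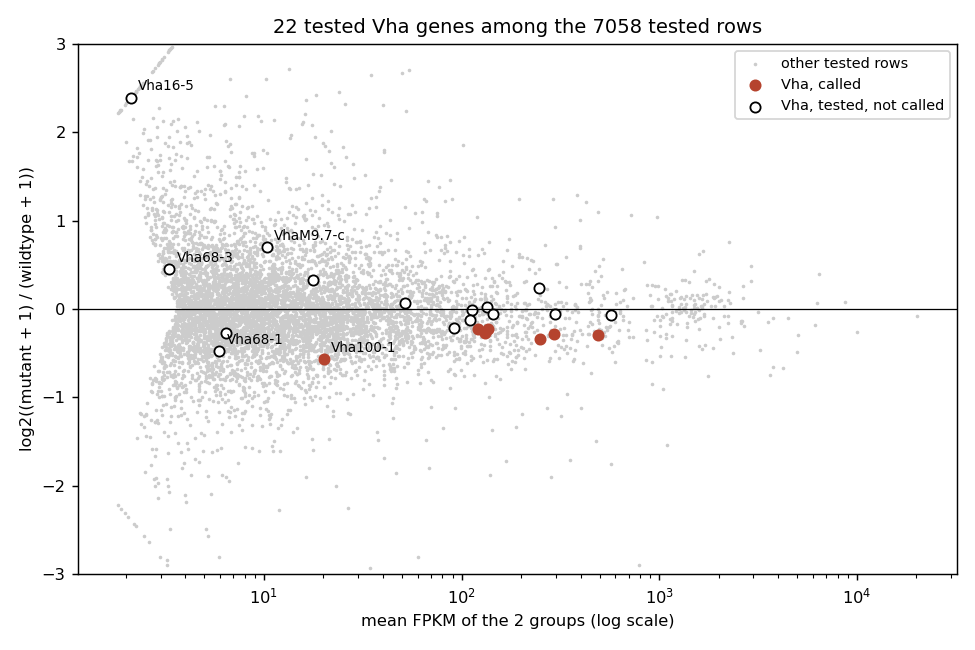
Log2 ratio of mutant to wildtype FPKM, each with 1 added (vertical axis), against the mean FPKM of both groups on a log scale (horizontal axis), for the 7058 tested rows in grey and the 22 tested Vha genes as circles, filled red where called. The vertical axis ends at 3 in each direction, which leaves out 57 rows. The abundant Vha genes lie within the cloud of other rows, most of them slightly below 0, and Vha16-5 is at the upper edge at low abundance.

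In V1 the falls were found in the catalytic ring and in an outer stalk. Vha68-2, which encodes the catalytic subunit A, had 264.6 FPKM in mutant larvae and 322.9 FPKM in wildtype larvae, a fall of 1.22-fold (q-value 0.000889 in the authors' deposited table). It lies on chromosome arm 2L at 12974322 to 12978607. Vha55, the single gene of subunit B, fell to 220.8 FPKM in mutant larvae, against 279.9 FPKM in wildtype larvae (1.27-fold, q-value 0.000889 in the authors' deposited table), and is on arm 3R at 12623762 to 12627829. The subunits that alternate in the ring thus fell by similar amounts, and Vha55 had the largest fall among the 13 widely expressed genes. Vha26 encodes subunit E of the outer stalks, on arm 3R at 5591763 to 5595356. It had 119.7 FPKM in mutant and 144.2 FPKM in wildtype larvae (1.20-fold lower, q-value 0.00491 in the authors' deposited table).

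The other V1 genes were not called. Vha13 encodes subunit G, which pairs with E in the outer stalks, and had 559 FPKM in mutant and 587 FPKM in wildtype larvae (q-value 0.436 in the authors' deposited table). Vha44, the gene of subunit C, had 84.1 FPKM in mutant and 98.1 FPKM in wildtype larvae (q-value 0.111 in the authors' deposited table). Its log2 ratio of -0.22 equalled that of VhaAC39-1, which was called, so the call alone does not separate them. Vha44 and VhaSFD lie in rows whose coordinates are shared, with Hmgs and with a microRNA gene. VhaSFD, the gene of the regulatory subunit H, had nearly equal values of 113.1 FPKM in mutant and 114.0 FPKM in wildtype larvae.

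The widely expressed genes of the central rotor were not called either. Vha36-1, for subunit D, had 135.0 FPKM in mutant and 133.0 FPKM in wildtype larvae. Vha14-1, for subunit F, had 266.6 FPKM in mutant and 226.0 FPKM in wildtype larvae, with an unadjusted p of 0.0289 (q-value 0.137 in the authors' deposited table). These were the 2 widely expressed genes with the higher value in mutant larvae, and neither was called. The difference between ring and rotor was not tested, since the table holds no value per library. Summed over the 8 widely expressed V1 genes, the level was 1763 FPKM in mutant and 1906 FPKM in wildtype larvae.

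In V0 the falls were in the c ring and in subunit d. Vha16-1 encodes the proton-carrying subunit c, on arm 2R at 6625242 to 6633090. It had 439.0 FPKM in mutant and 539.5 FPKM in wildtype larvae (1.23-fold lower, q-value 0.000889 in the authors' deposited table). VhaAC39-1 encodes subunit d, which links the c ring to the rotor, and lies on chromosome X at 3880748 to 3882967. Its level was 126.3 FPKM in mutant and 147.3 FPKM in wildtype larvae (1.17-fold lower). In the authors' deposited table its q-value of 0.0498 was just inside the threshold.

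The remaining widely expressed V0 genes had lower values in mutant larvae that were not called. Vha100-2, for subunit a, had 105.4 FPKM in mutant and 115.4 FPKM in wildtype larvae (q-value 0.177 in the authors' deposited table). VhaPPA1-1, for the ring subunit c'', had 141.8 FPKM in mutant and 148.0 FPKM in wildtype larvae. VhaM9.7-b, for the small subunit e, had 290.0 FPKM in mutant and 301.8 FPKM in wildtype larvae. All 5 widely expressed V0 genes thus had the lower value in mutant larvae, as did 65.2% of the 528 tested rows of like abundance, and the sum over them was 1103 FPKM in mutant and 1252 FPKM in wildtype larvae. When both groups were scaled to the same FPKM total, VhaM9.7-b and VhaSFD changed sign, and 9 of the 13 widely expressed genes, in place of 11, had the lower value in mutant larvae.

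Of the accessory genes, VhaAC45 was called. It encodes a homologue of the mammalian Ac45 protein, which is bound to V0, and lies on arm 2R at 9207561 to 9209774. Its level was 111.1 FPKM in mutant and 130.2 FPKM in wildtype larvae (1.17-fold lower, q-value 0.0423 in the authors' deposited table). VhaAC45RP, an Ac45-related gene, had 1.81 FPKM in mutant and 0.233 FPKM in wildtype larvae and was not tested by the authors.

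The exonic length of the genes differed along with the calls. The 5 widely expressed genes that fell had 1792 to 3077 nucleotides of exon (median 2786), and the 8 that were not called had 659 to 4023 (median 1284). The median log2 ratio was -0.29 over the 5 called and -0.059 over the 8 not called. Since the calls were made from these same values, that gap follows in part from the split itself. At a given FPKM a longer transcript gives more fragments, and the part of length in the calls was not tested. Of those not called, VhaSFD has 2829 nucleotides, Vha100-2 has 3222 and Vha44 has 4023, and these 3 are also the widely expressed genes whose rows share their coordinates with others.

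Subunit a was the one position where paralogues made up much of the transcript level. It anchors the proton channel, and in yeast and mammals its isoforms send the pump to different membranes. The 4 paralogues of Vha100-2 held 46.4% of the position's summed FPKM in mutant larvae and 44.1% in wildtype larvae. At each of the other 7 positions with paralogues, their share was at most 5.22% in mutant and 5.62% in wildtype larvae. The summed level of the 5 Vha100 genes was 196.7 FPKM in mutant and 206.5 FPKM in wildtype larvae.

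Of the subunit a paralogues, only Vha100-1 was called. Vha100-1, known in Drosophila for its role in neurons, had 16.0 FPKM in mutant and 24.2 FPKM in wildtype larvae. This was a fall of 1.51-fold (q-value 0.00429 in the authors' deposited table), and the largest fold among the 7 called genes. Its share of the position was 8.15% in mutant and 11.7% in wildtype larvae. Vha100-4, not called, had 19.9 FPKM in mutant and 15.6 FPKM in wildtype larvae (q-value 0.209 in the authors' deposited table). Vha100-5 had 53.1 FPKM in mutant and 50.5 FPKM in wildtype larvae, also not called. The order of Vha100-1 and Vha100-4 was thus opposite in the groups, although whether their changes differ was not tested.

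All 5 Vha100 rows share their coordinates with other rows of the table, which makes their values less certain. Vha100-1 overlaps the row of Alg13, a glycosylation gene, within arm 3R at 29131193 to 29138573. Vha100-4 overlaps cona and Vha100-2 overlaps Vti1b, and fragments in the overlap could be assigned to either gene. Of 10 neuronal markers, 3 were tested and 0 were called, with 1 lower (elav, 2.78 FPKM in mutant and 5.09 FPKM in wildtype larvae, named after its value was seen) and 0 higher at an unadjusted Cuffdiff p under 0.05. Their summed level was 38.1 FPKM in mutant and 40.3 FPKM in wildtype larvae, the highest being Syt1 (14.2 FPKM in mutant, 11.9 FPKM in wildtype larvae) and the row of Syx1A and eIF4EHP (14.4 and 16.6 FPKM in the same order). With 3 markers tested and 13.0% of all tested rows called, 0 calls is not unusual. The part of nervous tissue in the fall of Vha100-1 was not tested.

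**Figure D3:**
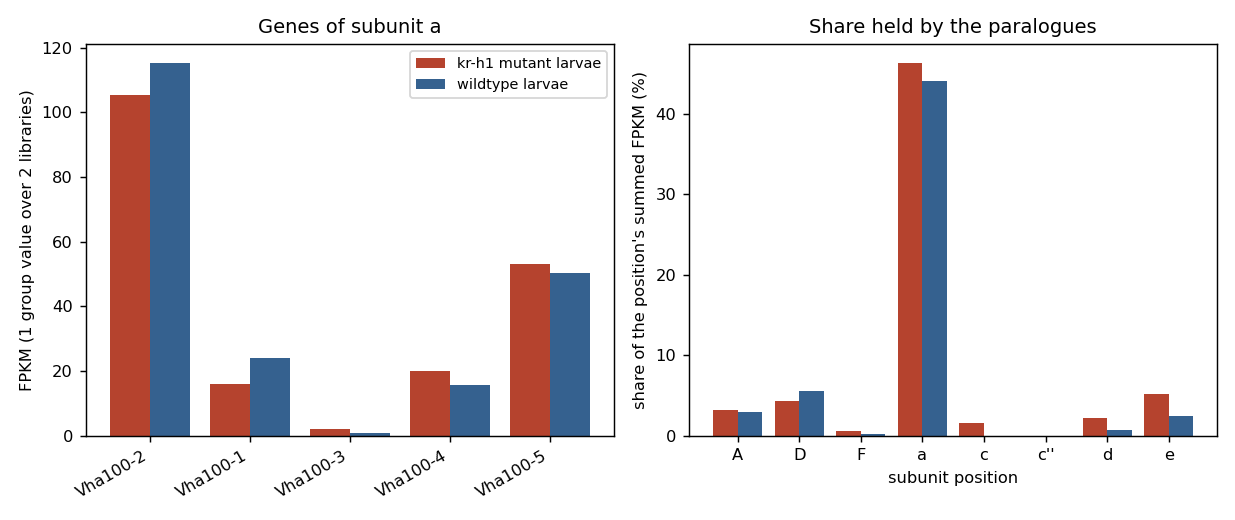
Left, FPKM of the 5 genes of subunit a, and right, the share of each position's summed FPKM held by its paralogues in percent, with red bars for kr-h1 mutant larvae and blue bars for wildtype larvae, 1 value per group. Only subunit a has a large share from paralogues, 46.4% in mutant and 44.1% in wildtype larvae.

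The remaining paralogues were low, and none was called. Among those tested, Vha68-1, a paralogue for subunit A, had 4.80 FPKM in mutant and 7.08 FPKM in wildtype larvae (q-value 0.237 in the authors' deposited table). Vha68-3, at the same position, had 3.99 FPKM in mutant and 2.64 FPKM in wildtype larvae. The paralogues of subunit A therefore differed in direction, with neither called. Vha36-3, for subunit D, had 5.71 FPKM in mutant and 7.09 FPKM in wildtype larvae. VhaM9.7-c, for subunit e, had 13.0 FPKM in mutant and 7.64 FPKM in wildtype larvae, in a row that overlaps those of tipE and 4 other genes. The authors' deposited table gives it a q-value of 0.353.

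Vha16-5 was the tested gene nearest to a rise. This paralogue of the c subunit stood at 4.25 FPKM in mutant larvae and was listed at 0 in wildtype larvae, on arm 2L at 10736319 to 10737043. Its p of 0.00755 gave a q-value of 0.0555 in the authors' deposited Cuffdiff table, just outside the threshold. It was tested on its value in mutant larvae alone, and with 725 nucleotides of exon it takes few fragments to reach such a level.

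The Vha genes below 5 FPKM, on the mean of both groups, mostly had the higher value in mutant larvae. Of these 13 genes, 9 had the higher value in mutant larvae, 1 had the lower value and 3 (Vha16-4, VhaPPA1-2 and VhaM9.7-d) were listed at 0 in both groups. Their summed level was 22.8 FPKM in mutant and 6.07 FPKM in wildtype larvae. Among all 6118 rows below 5 FPKM with a value above 0 in a group, 56.1% had the higher value in mutant larvae. Rows at 0 in both groups, such as those 3 Vha genes, are not in that share. Because 11 of the 13 were not tested by the authors and the other 2 were not called, these are values and not called changes.

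The highest of the untested paralogues in mutant larvae were VhaM9.7-a, for subunit e (2.93 FPKM in mutant, listed at 0 in wildtype larvae), and VhaAC39-2, for subunit d (2.92 FPKM in mutant, 1.03 FPKM in wildtype larvae). Vha100-3, for subunit a, had 2.19 FPKM in mutant and 0.830 FPKM in wildtype larvae. Vha16-2 and Vha16-3, both for subunit c, stood at 1.87 and 0.825 FPKM in mutant larvae and were listed at 0 in wildtype larvae. With Vha16-5, 3 paralogues of subunit c were listed at 0 in wildtype larvae and above 0 in mutant larvae. The row of Vha16-2 shares its coordinates with that of an antisense RNA gene, which makes its value less certain. Of all 16198 rows, 5442 were listed at 0 in wildtype larvae and 4920 in mutant larvae, with 4359 at 0 in both. Rows at 0 in wildtype larvae alone were thus the more common kind among all genes too. Vha14-2, for subunit F, had 1.62 FPKM in mutant and 0.504 FPKM in wildtype larvae. Vha36-2, for subunit D, was the exception, with 0.354 FPKM in mutant and 0.833 FPKM in wildtype larvae.

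Testis markers, too, mostly had the higher value in mutant larvae. Of 38 rows of the testis list, 30 had the higher value in mutant larvae and 7 the lower, and their summed level was 516 FPKM in mutant and 321 FPKM in wildtype larvae. Some of these rows hold other genes as well. Over the 33 rows of a single gene, without fzo, the sum was 381 FPKM in mutant and 199 FPKM in wildtype larvae. Of all 16198 rows, 5983 had the higher value in mutant larvae and 5856 the lower. Among the 22 tested, 3 rose and 0 fell, with 8 higher and 0 lower at an unadjusted Cuffdiff p under 0.05. By the same measures, 4.32% of all 7058 tested rows rose and 8.73% fell, with 700 higher and 1119 lower. The called genes were S-Lap1, a sperm leucyl aminopeptidase gene (37.3 FPKM in mutant, 21.7 FPKM in wildtype larvae), loopin-1 (19.6 and 12.5 FPKM in the same order) and Mst98Ca (19.5 and 8.13 FPKM). The meiotic arrest gene comr was listed at 0 in both groups and Mst84Dd in wildtype larvae alone. The sex of the larvae was not given, and the part of testis RNA in the levels of the low Vha genes was not tested.

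By class, the paralogues were a small part of the summed level. The 18 paralogues came to 133.5 FPKM in mutant and 117.9 FPKM in wildtype larvae, against 2866 FPKM in mutant and 3158 FPKM in wildtype larvae for the 13 widely expressed genes. Nearly all of the difference among paralogues lay below 5 FPKM, since the 6 with a mean of at least 5 FPKM summed to 112.6 FPKM in mutant and 112.1 FPKM in wildtype larvae. The median log2 ratio of the 8 tested paralogues was 0.20, but it was -0.10 over the 6 of them with a mean of at least 5 FPKM. No common direction was therefore seen among the tested paralogues. The difference between the classes could not be tested with 1 value per group.

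Several paralogues lie next to the widely expressed gene of their position. On arm 2L, Vha68-3 starts 178 nucleotides beyond Vha68-2, and Vha68-1 lies 19476 nucleotides further on. On arm 3R, Vha100-4 and Vha100-2 are 517 nucleotides apart, and VhaPPA1-2 and VhaPPA1-1 are 2052 apart. These neighbours had unequal levels, with Vha68-2 at 264.6 FPKM and Vha68-3 at 3.99 FPKM in mutant larvae, and 322.9 and 2.64 FPKM in wildtype larvae.

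Genes that assemble or regulate the pump gave no call. Of 5 tested members of that list 0 were called, while 1 was higher and 1 lower at an unadjusted Cuffdiff p under 0.05. With 13.0% of all tested rows called, 0 calls among 5 genes is not unusual. Vma21 and Tmem199, also on the list of 7, matched no gene symbol and were left out. ATP6AP2, an accessory protein of the pump whose symbol does not begin with Vha, had 180.6 FPKM in mutant and 199.7 FPKM in wildtype larvae (q-value 0.173 in the authors' deposited table). The gene mtd had 19.4 FPKM in mutant and 22.0 FPKM in wildtype larvae. Mitf, a transcription factor that activates pump genes in Drosophila, was chosen after its value was seen. Its level was 9.94 FPKM in mutant and 5.88 FPKM in wildtype larvae, and the q-value of 0.126 given by the authors' deposited table does not make it a call.

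Genes of the compartments where the pump works were mostly not called, as is true of all tested rows, of which 13.0% were called. Among 25 tested lysosomal genes, 3 fell and 0 rose, 5 being lower and 2 higher at an unadjusted Cuffdiff p under 0.05, and the median log2 ratio was 0.012. Those that fell were the lysosomal mannosidase gene LManV (45.8 FPKM in mutant, 65.2 FPKM in wildtype larvae), the cathepsin D gene cathD (153.0 and 185.5 FPKM in the same order) and beta-Man (21.9 and 29.7 FPKM). The number of lysosomal calls was thus near the share of calls over all tested rows. Of 16 tested Malpighian tubule genes, 1 rose and 1 fell, with a median log2 ratio of -0.0050. These were the potassium channel gene Irk2 (20.1 FPKM in mutant, 12.4 FPKM in wildtype larvae) and the sodium pump gene Atpalpha (67.4 FPKM in mutant, 80.8 FPKM in wildtype larvae). The midgut acid zone regulators lab, Ptx1, ct and dve were too low to be tested, with a summed level of 7.14 FPKM in mutant and 7.75 FPKM in wildtype larvae.

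Many markers of muscle and fat body fell in mutant larvae. Those of salivary gland mostly had the lower value, and the called midgut markers went in both directions. At the abundance of the widely expressed Vha genes, 35.4% of tested rows were called lower and 10.4% higher. Over all 7058 tested rows, the shares were 8.73% lower and 4.32% higher. In wildtype larvae the muscle markers ran from 23.9 to 5842 FPKM and the fat body markers from 201 to 6553 FPKM. The salivary gland markers ran from 6.63 to 1532 FPKM and the midgut enzyme markers from 0.174 to 1356 FPKM. Many of these markers thus lie outside that abundance, and the shares are not matched to them. Among 15 tested muscle markers 12 fell and 0 rose (0 also at an unadjusted Cuffdiff p under 0.05), with a median log2 ratio of -0.28, including Mhc (326 FPKM in mutant, 500.4 FPKM in wildtype larvae). Fat body and serum protein markers fell in 6 of 7 and rose in 0 (likewise 0 at an unadjusted Cuffdiff p under 0.05), with a median of -0.32, including the row of Fbp2 and CG42847 (2716 FPKM in mutant, 4571 FPKM in wildtype larvae). Salivary gland markers fell in 1 of 6 (Sgs8, 535 FPKM in mutant and 699 FPKM in wildtype larvae) and rose in 0. Of these 6, 5 had the lower value in mutant larvae, and the median log2 ratio was -0.18. At an unadjusted Cuffdiff p under 0.05, 2 were lower and 0 higher. Midgut enzyme markers rose in 3 and fell in 4 of 9, and their summed level was 1711 FPKM in mutant and 2965 FPKM in wildtype larvae. The 3 that rose were maltase or amylase genes, including Mal-A3 (63.3 FPKM in mutant, 17.8 FPKM in wildtype larvae) and Amy-d (10.2 and 3.35 FPKM in the same order). The 4 that fell were trypsin genes, including alphaTry (45.1 FPKM in mutant, 116.3 FPKM in wildtype larvae) and epsilonTry (726 and 1356 FPKM in the same order). The part of tissue composition in the falls of the Vha genes was not tested.

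**Figure D4:**
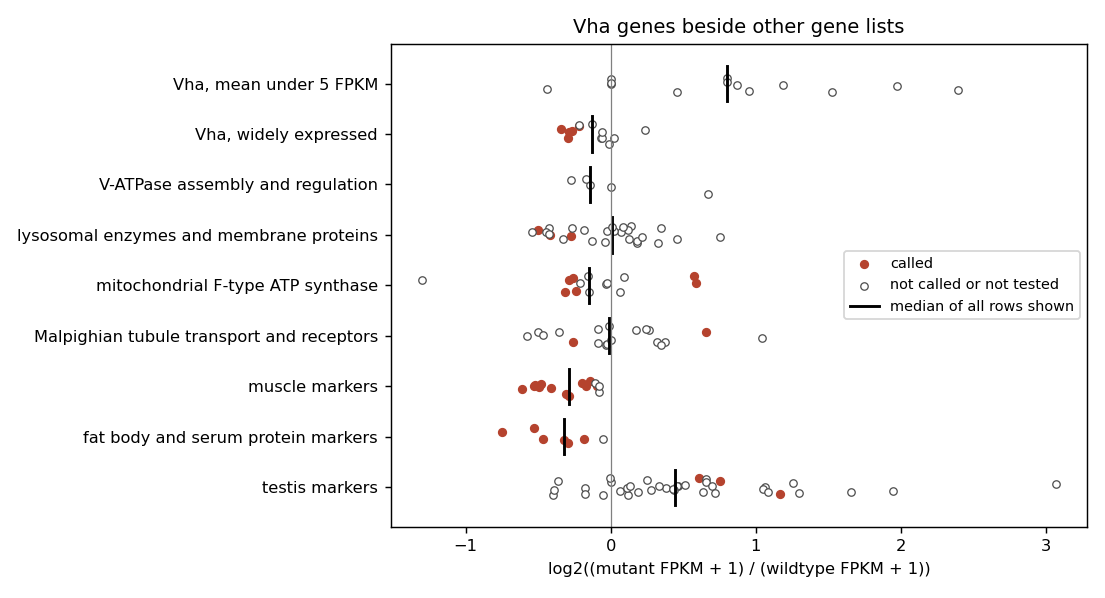
Log2 ratio of mutant to wildtype FPKM, each with 1 added (horizontal axis), for each gene of 2 Vha classes and 7 other lists (1 line each), with filled red points where called, open points otherwise and a black bar at the median of all rows shown. The low Vha genes and the testis markers lie mostly right of 0, with medians of 0.80 and 0.45, and most of the widely expressed Vha genes and the muscle and fat body markers lie left of 0.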

How the data were processed

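The deposited Cuffdiff table holds 1 FPKM value per group over 2 libraries, made by the authors with TopHat2, Cufflinks and Cuffdiff per the submitters' processing notes. The sources used here do not name versions, settings, the genome build, the strand setting or the depth. The deposited log2 fold change, p-value, q-value and test statistic (a score) came from Cuffdiff. The q-values matched a recomputed Benjamini-Hochberg adjustment in all 7058 tested rows. Of the other rows, 9135 have the status of no test and 5 that of too high data, with 0 Vha genes among these 5.

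Accessions were matched to Release 6 symbols (99.2%). All 33 Vha rows contained the Release 6 position of their gene. Coordinates are the table's, with a 1-based start. Exonic lengths are unions of exons in Ensembl release 115. Ratios are log2((mutant FPKM + 1)/(wildtype FPKM + 1)), which understates the change of low genes. Folds use the FPKM values alone, and none is given against 0.

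The members, 12 gene lists and comparisons were chosen with earlier results of these data known. Named genes were every Vha member and, of each other list, up to 4 called members by absolute ratio or, with none called, up to 2 with the highest mean. Outside this rule, Mitf, elav, the testis markers listed at 0 (comr, Mst84Dd) and all 4 midgut acid zone genes were named after their values were seen. The list symbol Tor was matched by hand to mTor. A planned search of promoters for motifs was not run, and no sequence of the members was used here. The ratio and adjustment steps were tested on simulated data. Python 3.11.15, numpy 2.4.6, pandas 2.3.3 and matplotlib 3.10.9 were used.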

Additional observations from a re-analysis of the deposited data

How the results depend on the processing

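The number of Vha genes called lower was 5 at a q-value threshold of 0.01 (without VhaAC39-1 and VhaAC45), 7 at 0.10, 6 without rows that share coordinates, and 7 both with a mean of at least 10 FPKM and when readjusted over rows with a mean of at least 1 FPKM. The number called higher was 1 (Vha16-5) at a threshold of 0.10 and 0 under the other alternatives. The median log2 ratio of the widely expressed genes was -0.094 when centred on the median of all tested rows, -0.070 when scaled to the summed FPKM and -0.15 without rows that share coordinates. That of the tested paralogues was 0.21 and 0.15 with pseudocounts of 0.1 and 5, 0.24 when centred, 0.26 when scaled and 0.091 without rows that share coordinates. It was -0.10 over paralogues with a mean of at least 5 FPKM, a limit chosen after seeing the data, which leaves fewer genes. No called gene changed sign under a pseudocount of 0.1 or 5, centring or scaling. No paired analysis was possible because the table holds 1 value per group, and for the same reason no library could be left out. The depth is unknown, so the precision of the low values cannot be given.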

Other observations

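The mitochondrial ATP synthase is the rotary machine that runs in the opposite direction. Of its 14 tested genes, 2 rose and 4 fell in mutant larvae, with a median log2 ratio of -0.15, and at an unadjusted Cuffdiff p under 0.05 there were 2 higher and 7 lower. Among tested rows of 91.1 to 573 FPKM, 10.4% were called higher and 35.4% lower, so calls were common at such levels. The 14 genes ran from 9.12 to 2339 FPKM in wildtype larvae, so these shares are not matched to all of them. ATPsynG, for subunit g, rose 1.51-fold (406 FPKM in mutant, 269.5 FPKM in wildtype larvae) and sun, for subunit epsilon, rose 1.49-fold (625 FPKM in mutant, 419.9 FPKM in wildtype larvae). The gene blw, for the alpha subunit, fell 1.24-fold (660 FPKM in mutant, 820.3 FPKM in wildtype larvae) and ATPsynB fell 1.22-fold (392 FPKM in mutant, 478 FPKM in wildtype larvae).

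The list for the kinase complex TORC1 at the lysosome holds mTor, raptor, Rheb and the Rag, Ragulator and GATOR genes that act on it. It gave 0 calls among 14 tested members by the deposited Cuffdiff q-value, with 1 higher and 3 lower at an unadjusted p under 0.05. For comparison, 13.0% of all 7058 tested rows were called, and 700 were higher and 1119 lower at that p. Lamtor3, a subunit of the Ragulator scaffold, had 23.4 FPKM in mutant and 31.2 FPKM in wildtype larvae, and the GTPase gene Rheb had 27.0 FPKM in mutant and 23.1 FPKM in wildtype larvae.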
